A study of Mus musculus with 34 samples.

Results

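The 10 genes described here encode serotonin receptors: Htr1a, Htr1b, Htr1d, Htr1f, Htr2a, Htr2c, Htr3a, Htr4, Htr5a and Htr7. They were chosen by name from the 18548 genes of the deposited table, and all 10 have a row in it. They were chosen with a result of these data in view, the lower Htr1a level in heterozygote hippocampus. The 2 genotypes are therefore compared in hippocampus by description, with no test. The wild-type hippocampal values also enter the comparisons between regions, where those of Htr1a get no test either. RNA sequencing covered Myt1l heterozygotes (HT) and wild-type (WT) mice, all male C57BL/6J animals at postnatal day 56 with no treatment named. Prefrontal cortex (PFC) was measured in 5 HT and 6 WT libraries, hippocampus in 5 HT and 6 WT libraries, and striatum in 6 HT and 6 WT libraries. The labels do not describe the Myt1l allele, and they do not say that the libraries of a group came from separate animals, so p-values measure only the spread between these libraries.

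Serotonin is released throughout the forebrain by neurons whose cell bodies lie in the raphe nuclei of the brainstem, and the receptors on the target cells set what it does there. The Htr1 and Htr5 families couple to inhibitory Gi/o proteins, the Htr2 family couples to Gq and phospholipase C, Htr4, Htr6 and Htr7 couple to Gs and adenylyl cyclase, and Htr3a encodes a subunit of a cation channel opened directly by serotonin. Myt1l encodes a neuronal zinc finger transcription factor of the MYT family.

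The values are normalized counts, that is, read counts that the authors scaled between libraries, and they sum to 25786041 to 29798959 per library. Myt1l itself was not lower in the libraries labelled HT. It averaged 6820 ± 456 normalized counts in HT PFC and 6650 ± 842 in WT PFC, 6896 ± 385 in HT hippocampus and 6216 ± 594 in WT hippocampus, and 8162 ± 954 in HT striatum and 7675 ± 552 in WT striatum (SD, n = 5 to 6). Since the allele is not described, whether its transcripts would be counted is unknown, and HT and WT are used below as the labels give them. Column names carry 12 codes that recur across regions, with no statement in the labels of what they stand for. One of them, 31-67M, is found on libraries of both genotypes, HT hippocampus replicate 1, HT striatum replicate 1 and WT PFC replicate 6. The labels were followed, and several of the genotype differences in which these libraries enter are given with and without them. Choroid plexus genes set libraries apart. The summed level of 12 choroid plexus markers, Ttr among them, was 8136 in HT hippocampus replicate 1, against 37976 to 139184 in the other 4 HT hippocampal libraries, and 7123 in WT hippocampus replicate 6, against 49551 to 104400 in the other 5 WT libraries. In striatum it was 8514 in HT replicate 1, 50640 to 137885 in the other 5 HT libraries and 41056 to 143213 in the WT libraries, and in PFC it was 6602 to 7862 in HT libraries and 6404 to 8597 in WT libraries.

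Promoter sequences are shown for Htr1a, on which the genotype comparison turns, and for Htr1f and Htr7, whose windows alone among the members hold the core letters bound by MYT family proteins, AAGTT, which reads as AACTT on the other strand. RefSeq promoter windows on GRCm38.p6 matched 8 of the 10 genes, with 9 windows in all; Htr3a and Htr4 are named only. The bases below lie upstream of the annotated transcript starts and run 5′ to 3′ on the gene's strand, and capitals mark that core on either strand or, in Htr1a, the GC box, spelled GGGCGG. They cover chr13:105443443-105443638 on the plus strand for Htr1a, chr16:65105855-65106034 on the minus strand for Htr1f and chr19:36057508-36057610 on the minus strand for Htr7.
Htr1a: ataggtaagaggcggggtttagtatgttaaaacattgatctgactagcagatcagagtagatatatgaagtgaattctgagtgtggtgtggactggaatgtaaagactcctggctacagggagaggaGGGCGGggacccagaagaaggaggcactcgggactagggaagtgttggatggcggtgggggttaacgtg
Htr1f: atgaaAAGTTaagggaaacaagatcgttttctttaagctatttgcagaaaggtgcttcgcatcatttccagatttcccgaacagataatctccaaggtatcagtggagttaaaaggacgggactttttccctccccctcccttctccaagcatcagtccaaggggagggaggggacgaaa
Htr7: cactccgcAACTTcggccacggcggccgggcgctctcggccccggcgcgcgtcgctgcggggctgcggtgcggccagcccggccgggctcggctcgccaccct
Over the 250 bases upstream of each start, searched on both strands, AAGTT occurred in 2 of the 9 windows, against 35.3% of 32851 promoters of the same length. The Htr1a window held none, and held 1 GC box, a motif found in 32.7% of all promoters.

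The 10 receptors divided the 3 wild-type regions among them. Htr1f, Htr2a and Htr5a were highest in PFC, Htr1a, Htr3a and Htr4 in hippocampus, and Htr1b, Htr1d, Htr2c and Htr7 in striatum. In limma fits over the 18 WT libraries, 9 of 10 members differed between PFC and hippocampus, where 46.8% of the 17017 genes tested did. Of the 10, 5 were higher in PFC, against 22.9% of genes, and 4 were lower, against 23.9%. All 10 differed between PFC and striatum, against 57.0% of genes, 5 of them higher (27.8% of genes) and 5 lower (29.2%). All 10 differed between hippocampus and striatum, against 48.0% of genes, 4 of them higher (23.9% of genes) and 6 lower (24.1%). The WT libraries of the regions did not overlap for 7 of 10 members between PFC and hippocampus (29.0% of genes), for 8 between PFC and striatum (35.8%) and for 7 between hippocampus and striatum (29.8%). Htr1d reached the minimum mean level for testing only through its striatal libraries, so its place in these counts carries no weight. Htr1a was chosen by its hippocampal values, so its place in the counts that involve hippocampus carries no weight either. With equal library totals in place of the authors' scaling, the median log2 difference over all genes was -0.0987 for PFC against hippocampus. It was -0.154 for PFC against striatum and -0.0610 for hippocampus against striatum. The authors' scaling gave -0.0096, -0.0115 and -0.0083, in the same order. With equal totals the calls became 2914 higher and 5846 lower for PFC against hippocampus, where the authors' scaling gave 3890 and 4069. They became 3184 higher and 7330 lower for PFC against striatum, against 4739 and 4962, and 3370 higher and 5007 lower for hippocampus against striatum, against 4071 and 4099. In these bulk samples, fewer cells of a type and less RNA per cell cannot be told apart.

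**Figure D1:**
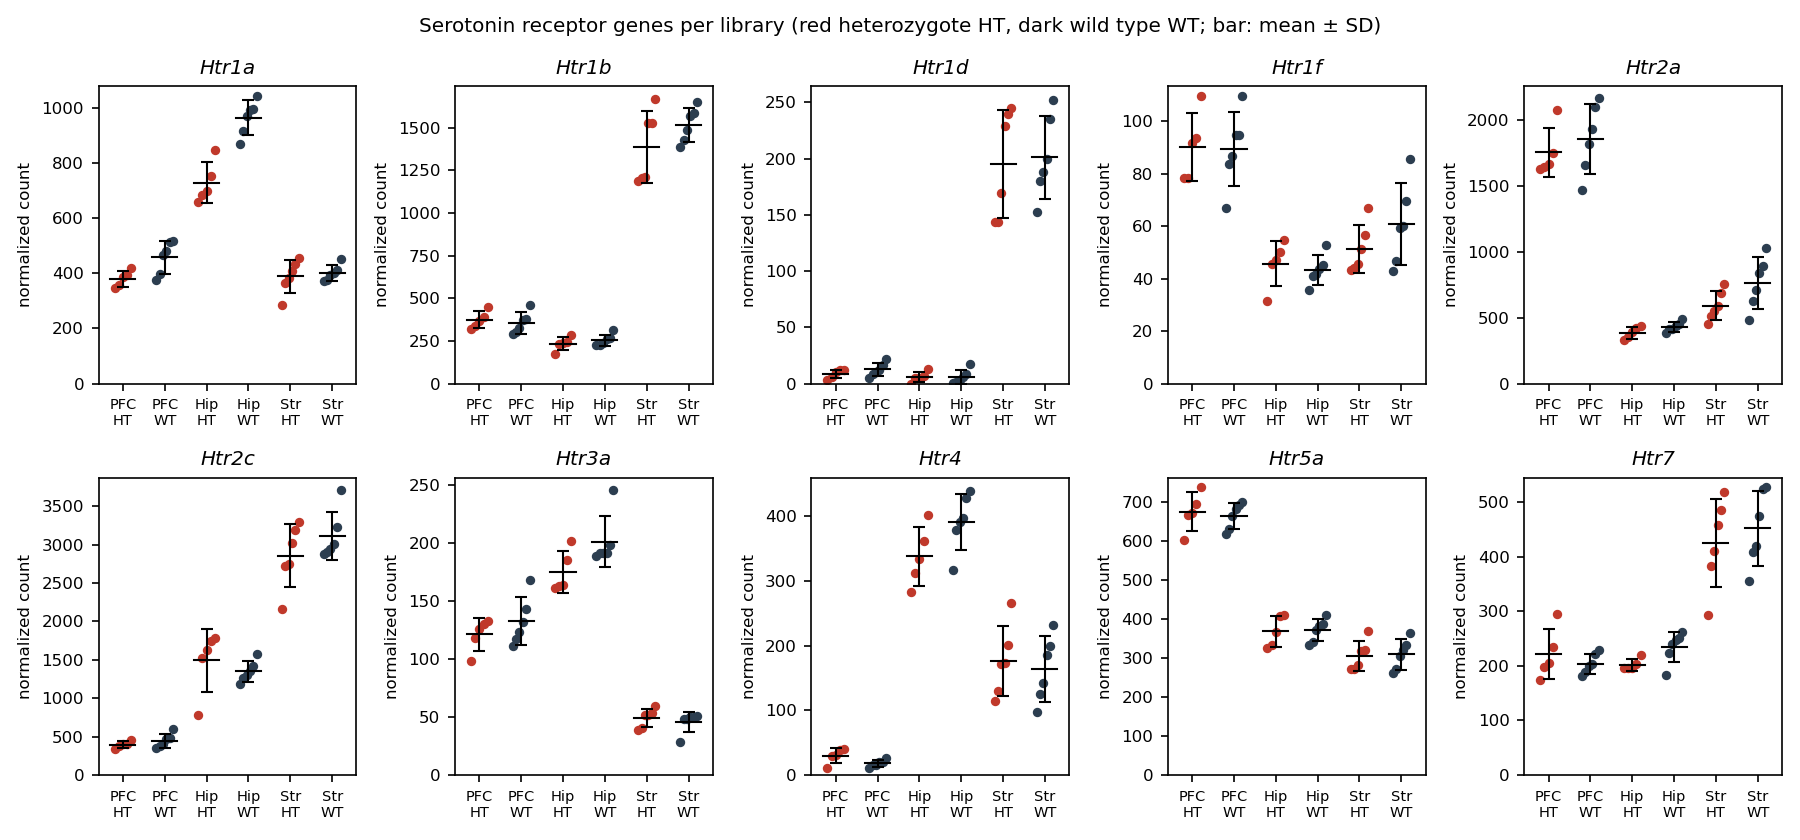
Normalized counts of the 10 serotonin receptor genes in every library, by region and genotype, with a point for each library and the group mean with its SD as a bar. Htr1a stands highest in hippocampus, where the 5 HT libraries (659 to 847) lie below the 6 WT libraries (868 to 1042), and Htr1d is near 0 outside striatum.

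Among the inhibitory receptors that are members, Htr1a alone had its highest WT mean in hippocampus. Htr5b, an inhibitory receptor outside the members, was also highest there and is described below. Htr1a encodes the autoreceptor of raphe neurons and a postsynaptic receptor that opens potassium channels in hippocampal and cortical neurons, and it is a gene of 1 exon (GRCm38, chromosome 13, 105443639 to 105448122, plus strand). The WT libraries held 377 to 519 normalized counts in PFC (median 474), 868 to 1042 in hippocampus (median 982) and 372 to 452 in striatum (median 397). The hippocampal libraries lay above all others, while PFC and striatum overlapped. The log2 difference was -1.08 (SE 0.08) for PFC against hippocampus and 1.265 (SE 0.08) for hippocampus against striatum. The WT hippocampal values are among those by which the gene was chosen, so these differences are left as values. PFC stood 0.19 above striatum on the log2 scale (SE 0.08, adjusted p = 0.0444), a difference that did not hold up. Its adjusted p was 0.0502 to 0.115 in 9 of the 12 fits that left out 1 WT library (PFC replicates 2, 3, 4 and 5 and striatum replicates 1, 3, 4, 5 and 6), 0.647 with equal library totals, where the difference was 0.04, and 0.052 without limma's trend and robust options. Over the HT libraries it was -0.02.

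Htr1b and Htr1d had their highest levels in striatum. Both encode receptors that inhibit transmitter release at axon terminals. Htr1b (chromosome 9, 81628291 to 81633828, minus strand) had 290 to 457 normalized counts in WT PFC (median 349), 223 to 311 in WT hippocampus (median 248) and 1385 to 1648 in WT striatum (median 1525). Its log2 difference was -2.11 (SE 0.10) for PFC against striatum, with an adjusted p of 4.51e-14, and -2.58 (SE 0.10) for hippocampus against striatum, with an adjusted p of 1.04e-15. PFC and hippocampus lay closer together, at 0.47 (SE 0.10, adjusted p = 0.000357). Htr1b shares 852 exon bases with D430036J16Rik on the opposite strand, and the library kit named does not mark strand, so reads of the shared bases cannot be told apart. D430036J16Rik averaged 56.4 normalized counts in WT PFC, 40.0 in WT hippocampus and 216 in WT striatum.

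Htr1d (chromosome 4, 136423524 to 136444398, plus strand) was close to the limit of measurement outside striatum. It had 5.26 to 21.9 normalized counts in WT PFC, 0.72 to 17.0 in WT hippocampus and 152 to 252 in WT striatum (median 194). Every striatal library lay above every library of the other regions, and since the gene entered the fit through those libraries, its differences from striatum are left as values. PFC against hippocampus came to 1.30 (SE 0.44), from values of a few normalized counts, and is left as a value for the same reason. Its place in the count of that comparison was lost when PFC replicate 2, hippocampus replicate 2 or hippocampus replicate 3 was left out, and over the HT libraries. The difference was 0.98 to 1.65 when any 1 library was left out.

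Htr1f and Htr5a were cortical in their order of levels. Htr1f, another Gi/o-coupled receptor (chromosome 16, 64924729 to 65105854, minus strand), had 66.8 to 109 normalized counts in WT PFC (median 90.7), 35.6 to 52.8 in WT hippocampus (median 42.6) and 42.7 to 85.7 in WT striatum (median 59.5). PFC was above hippocampus by 1.02 on the log2 scale (SE 0.16, adjusted p = 1.96e-05) and above striatum by 0.57 (adjusted p = 0.00484). Hippocampus against striatum, at -0.45 (adjusted p = 0.0275), was lost without hippocampus replicate 6 (adjusted p = 0.0649), striatum replicate 4 (0.0629) or striatum replicate 5 (0.0833), and over the HT libraries, where it was -0.17 (0.414). Htr5a, from the other inhibitory family (chromosome 5, 27842149 to 27855088, plus strand), had 619 to 702 normalized counts in WT PFC (median 674), 335 to 410 in WT hippocampus (median 377) and 262 to 365 in WT striatum (median 313). It had a coefficient of variation of 5.12% to 12.6% within the 6 groups. It differed by 0.84 between PFC and hippocampus (SE 0.08, adjusted p = 5.48e-09), by 1.11 between PFC and striatum (SE 0.08, adjusted p = 3.22e-11) and by 0.27 between hippocampus and striatum (adjusted p = 0.00559).

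The pair of Gq-coupled receptors differed in the place of PFC, which was the highest region for Htr2a and the lowest for Htr2c, while both were lower in hippocampus than in striatum. Htr2a, the target of classical hallucinogens on cortical pyramidal neurons (chromosome 14, 74640840 to 74709494, plus strand), had 1472 to 2169 normalized counts in WT PFC (median 1874), 382 to 492 in WT hippocampus (median 428) and 485 to 1033 in WT striatum (median 775). Every PFC library lay above every library of the other regions. The log2 difference was 2.10 (SE 0.14) for PFC against hippocampus, with an adjusted p of 1.64e-10, 1.31 for PFC against striatum, with an adjusted p of 9.26e-08, and -0.78 for hippocampus against striatum, with an adjusted p of 8.72e-05. Htr2c, whose transcript is edited at several bases and is abundant in choroid plexus (chromosome X, 146962513 to 147197277, plus strand), was lowest in PFC. The WT libraries held 347 to 601 normalized counts in PFC (median 433), 1182 to 1576 in hippocampus (median 1332) and 2878 to 3704 in striatum (median 2973), with no overlap between any pair of regions. The log2 difference was -1.61 (SE 0.10) for PFC against hippocampus, with an adjusted p of 4.29e-11, -2.81 for PFC against striatum, with an adjusted p of 4.45e-15, and -1.20 for hippocampus against striatum, with an adjusted p of 2.81e-09.

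The choroid plexus sum moved with Htr2c across libraries. It was low in every PFC library, and Htr2c was lowest of its group in HT hippocampus replicate 1 (775), WT hippocampus replicate 6 (1182) and HT striatum replicate 1 (2159), the 3 libraries outside PFC with the smallest sums. WT hippocampus replicate 6, with a sum of 7123, held 1182 normalized counts of Htr2c, and the PFC libraries were at 601 or below. The choroid plexus sum does not rank libraries as the mean log2 value of the same 12 markers does. That mean was at least 6.76 in the WT hippocampal libraries and at most 4.81 in the WT PFC libraries. Choroid plexus was not the only list to move with Htr2c. After the group means were subtracted, Htr2c and the mean log2 value of the 8 ventral hippocampus and subiculum markers had a Pearson's r of 0.53 in PFC. It was 0.72 in hippocampus and 0.76 in striatum. The part of choroid plexus RNA, or of tissue with these other markers, in the regional differences of Htr2c was not tested.

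**Figure D2:**
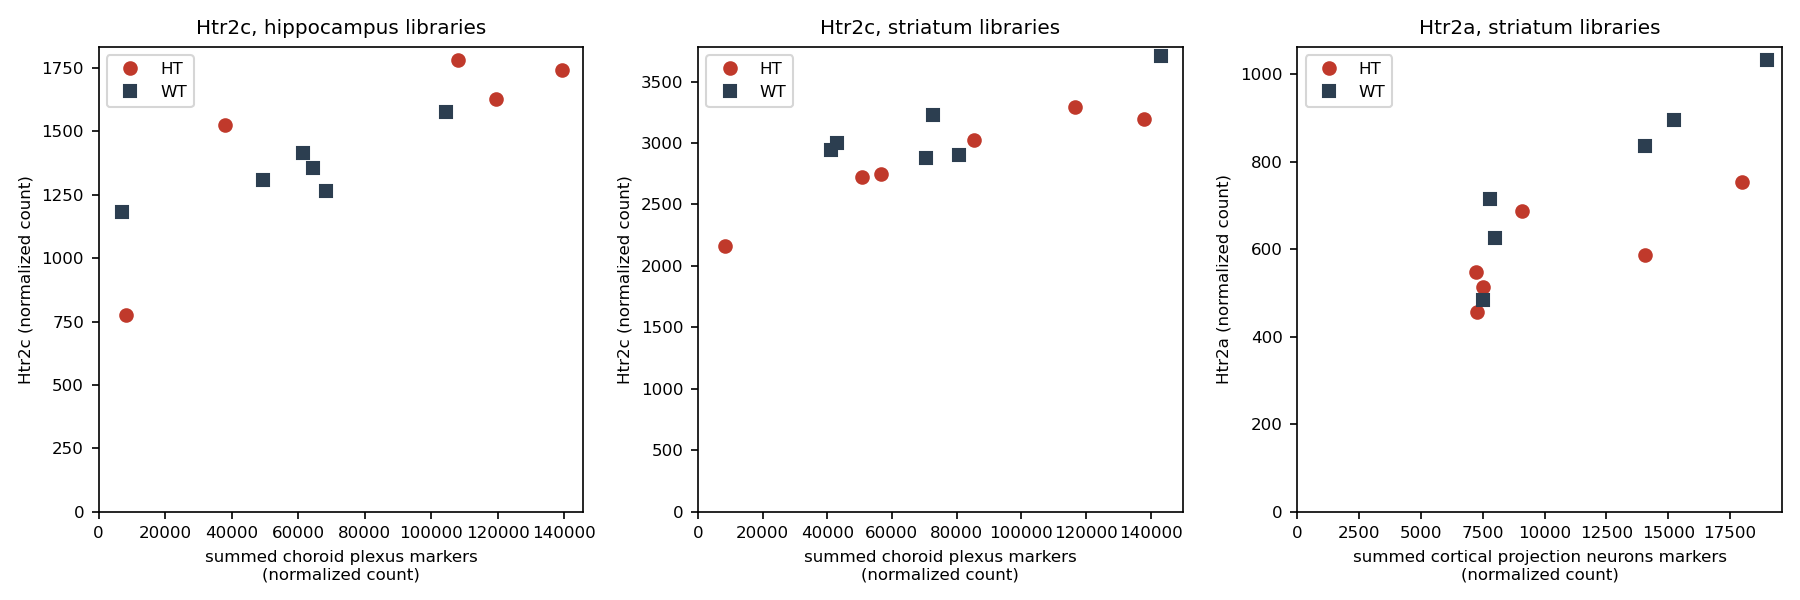
Normalized counts of Htr2c in hippocampus and in striatum against the summed choroid plexus markers, and of Htr2a in striatum against the summed cortical projection neuron markers (sums of normalized counts), with a point for each HT or WT library. HT hippocampus replicate 1 and WT hippocampus replicate 6 have both the smallest hippocampal choroid plexus sums (8136 and 7123) and the lowest Htr2c of their groups (775 and 1182).

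The channel subunit and the Gs-coupled receptors completed the set. Htr3a, found in a class of cortical and hippocampal interneurons (chromosome 9, 48899213 to 48911099, minus strand), had 112 to 169 normalized counts in WT PFC (median 128), 189 to 246 in WT hippocampus (median 192) and 28.5 to 50.6 in WT striatum (median 49.1). No pair of regions overlapped. The log2 difference was -0.60 (SE 0.14) for PFC against hippocampus, with an adjusted p of 0.00102, 1.52 for PFC against striatum, with an adjusted p of 3.24e-09, and 2.13 for hippocampus against striatum, with an adjusted p of 1.38e-11. Htr4 (chromosome 18, 62324204 to 62496577, plus strand) raises cAMP in hippocampal neurons and had the largest difference between PFC and hippocampus among the members. Its WT libraries held 10.3 to 26.7 normalized counts in PFC (median 17.8), 316 to 439 in hippocampus (median 395) and 97.6 to 232 in striatum (median 164). PFC differed from hippocampus by -4.42 on the log2 scale (SE 0.20, adjusted p = 6.8e-14) and from striatum by -3.11 (adjusted p = 1.19e-11), and hippocampus differed from striatum by 1.31 (adjusted p = 1.02e-05). Htr7 (chromosome 19, 35958734 to 36057507, minus strand) had 181 to 229 normalized counts in WT PFC (median 202), 184 to 261 in WT hippocampus (median 244) and 356 to 528 in WT striatum (median 447). Striatum lay above both other regions, with log2 differences of -1.13 for PFC against striatum (adjusted p = 2.61e-09) and -0.94 for hippocampus against striatum (adjusted p = 6.81e-08). PFC and hippocampus overlapped, and their difference of -0.20 had a 95% interval of -0.41 to 0.02 (adjusted p = 0.123). It passed without hippocampus replicate 4 (-0.26, adjusted p = 0.0332) and with equal library totals (-0.29, adjusted p = 0.0297), and over the HT libraries it was 0.11.

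Dividing the mean by the length of the merged exons allows the genes to be set against each other. In WT PFC the order began with Htr2a at 332 normalized counts per kb, which was 39.2% of the sum over the 10 members, followed by Htr5a at 124 and Htr1a at 102. Hippocampus was led by Htr1a at 215 per kb (26.1% of the sum), Htr2c at 145 and Htr3a at 96.6. In WT striatum, Htr2c at 333 per kb (27.5%) and Htr1b at 321 stood side by side, ahead of Htr2a at 136 and Htr7 at 133. Htr1d and Htr4 were at the bottom in PFC, at 3.90 and 3.66 per kb. HT libraries gave the same order of the 3 regions for 8 of the 10 genes, the exceptions being Htr1a and Htr7, whose lower regional means lie close together. In HT libraries Htr1a averaged 381 normalized counts in PFC and 388 in striatum, against 459 and 401 in WT libraries.

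**Figure D3:**
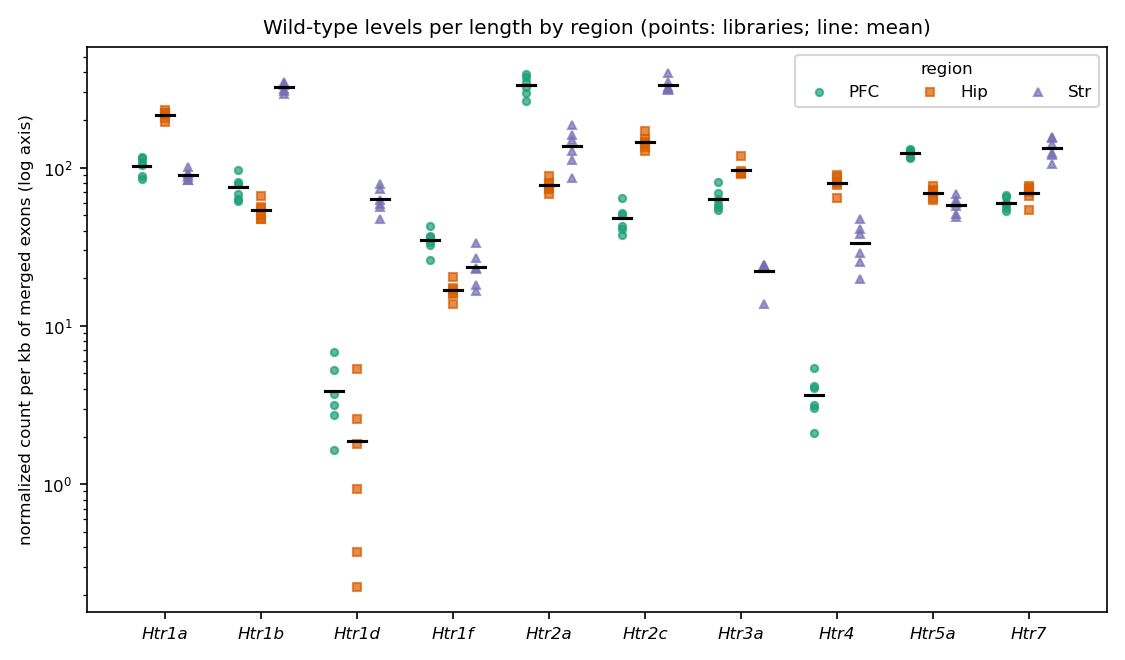
Normalized counts per kb of merged exons on a log axis, with a point for each WT library (n = 6 in each region) and a line at the mean. Htr2a leads in PFC (332 per kb), Htr1a in hippocampus (215 per kb), and Htr2c and Htr1b in striatum (333 and 321 per kb).

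The genotype comparison asked which receptors differed between HT and WT mice in each region. Htr1a was lower in HT hippocampus, the observation by which the genes were chosen. The HT libraries held 847, 659, 699, 753 and 684 normalized counts, against 868 to 1042 in the 6 WT libraries (median 982). All 5 HT libraries lay below all 6 WT libraries, an order that 0.357% of the 16820 genes tested in hippocampus had and from which, for a gene chosen by it, nothing is read. HT averaged 728 ± 74.5 and WT 965 ± 62.3 (SD, n = 5 and 6), a ratio of 0.755 and a log2 difference of -0.41 (SE 0.07). It lay between -0.37 and -0.46 when any 1 library was left out. HT replicate 1, which carries the code 31-67M, was the highest of the HT libraries, and without it the difference was -0.46. Summed markers of hippocampal fields overlapped between the genotypes, though a sum follows the most abundant genes of its list. The mean log2 value of the 7 CA1 markers was 10.67 to 10.83 in HT (median 10.78) and 10.75 to 10.93 in WT libraries (median 10.84). These CA1 genes differed by -0.52 to 0.10 on the log2 scale in HT against WT, 4 of them below 0 and 3 above. The 7 CA1 markers summed to 15196 to 17520 in HT and 15481 to 17323 in WT libraries, the 8 dentate granule markers to 14270 to 17795 in HT and 14456 to 16233 in WT libraries, and the 8 markers of ventral hippocampus and subiculum to 7780 to 9815 in HT and 8692 to 9883 in WT libraries. The 8 CA2 and CA3 markers summed to 11206 to 12728 in HT and 10710 to 11750 in WT libraries. Their HT median of 11968 lay above the highest WT library. In WT striatum the CA2 and CA3 sum had a median of 13122, against 11331 in WT hippocampus, so this list does not mark hippocampus alone. Nor does the list of ventral hippocampus and subiculum, whose mean log2 value had a median of 9.71 in WT striatum and 9.38 in WT hippocampus. The part of any of these markers in the Htr1a difference was not tested.

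In PFC, whose values the choice of genes did not use, Htr1a was below its WT mean in 5 of 5 HT libraries and did not pass the test. Codes recur between the PFC and hippocampal libraries, so whether the regions are independent is unknown. The share of all genes below the WT mean in every HT library was not counted, so nothing is read from that order here or below. The HT PFC libraries held 347, 386, 358, 419 and 394 normalized counts, against 377 to 519 in the WT PFC libraries (median 474). The groups overlapped, with WT replicates 1 and 6 among the HT values. The log2 difference was -0.26 (SE 0.09, 95% interval -0.46 to -0.06), with an unadjusted p of 0.0123 and an adjusted p of 0.977 over 16667 genes by limma. It was -0.22 to -0.32 when any 1 library was left out, and -0.30 without WT replicate 6, the library with the code 31-67M. In striatum the HT libraries held 286 to 456 normalized counts of Htr1a (median 396), against 372 to 452 in the WT libraries (median 397), and 3 of 6 HT libraries lay below the WT mean. The log2 difference there was -0.06 (SE 0.10, adjusted p = 0.958), and 0.03 without HT replicate 1. The difference between the PFC and striatal effects, -0.20 (SE 0.13), did not pass (adjusted p = 0.999).

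**Figure D4:**
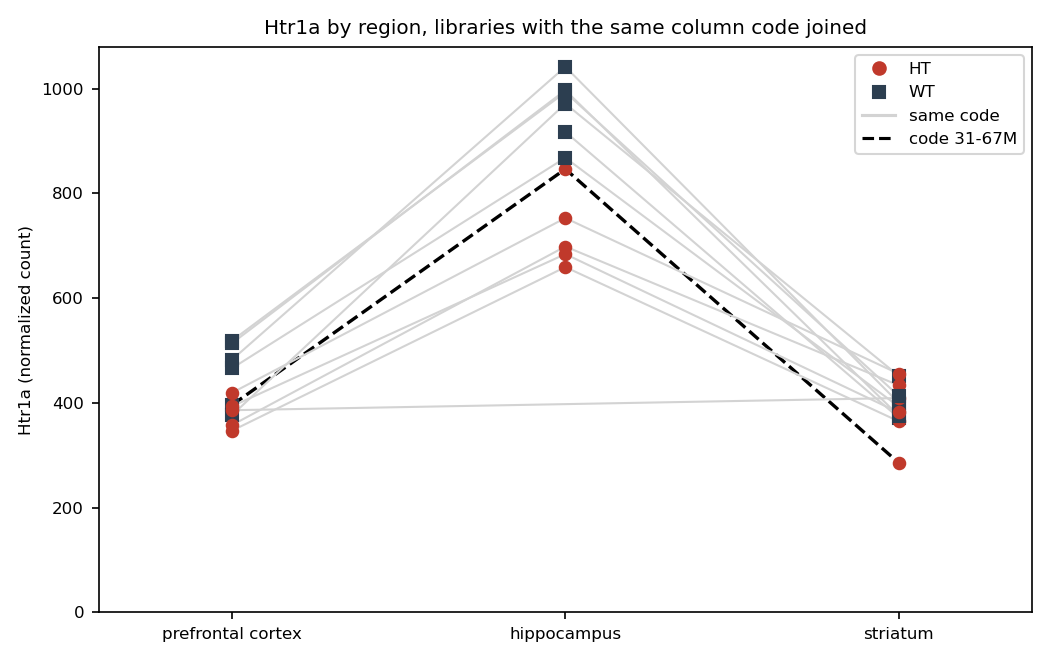
Normalized counts of Htr1a in each library, by region, with circles for HT, squares for WT, grey lines joining libraries of the same column code and a dashed line for the code 31-67M. In hippocampus the HT library of that code (847) is the highest of the 5 HT libraries and lies below the lowest WT library (868).

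No member passed the test of HT against WT in PFC, where 0.0% of the 16667 genes tested did, or in striatum, where 0.0% of 17054 did. At an unadjusted p under 0.05, 1 of the 10 members (Htr1a) would count in PFC, against 5.0% of all genes, and 0 of 10 in striatum, against 5.89%. No member passed the test of a difference between the PFC and striatal effects, as for all 17051 genes (0.0%), with 0 of 10 members and 3.59% of all genes at an unadjusted p under 0.05. Of the members, 5 of 10 lay below 0 in PFC, against 51.3% of all genes, and 8 of 10 in striatum, against 51.6%. The median log2 difference over the members was -0.03 in PFC and -0.08 in striatum, where over all genes it was -0.003 and -0.004. For 0 of 10 members did all HT libraries lie on one side of all WT libraries in PFC or in striatum, an order that 0.462% of genes had in PFC and 0.399% in striatum.

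**Figure D5:**
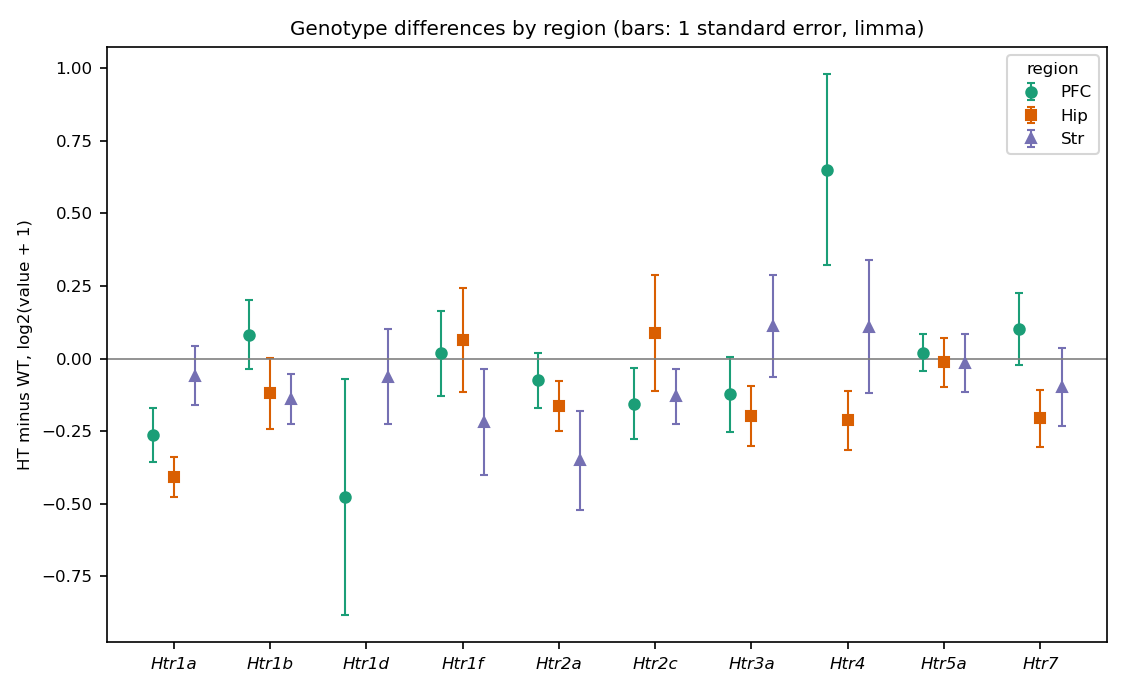
Log2 difference of HT against WT for each serotonin receptor gene in PFC, hippocampus and striatum, with bars of 1 standard error. The Htr1a point in hippocampus is at -0.41, Htr4 in PFC is at 0.65 with a standard error of 0.33, and Htr1d has no hippocampal point because its mean there was under the minimum for the fit.

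Htr4 had the largest difference of either sign among the members in PFC, at a low level. The HT libraries held 30.7, 38.6, 40.3, 29.7 and 11.1 normalized counts, against 10.3 to 26.7 in the WT libraries (median 17.8). HT replicates 1 to 4 lay above the highest WT library and HT replicate 5 near the lowest. The mean ratio was 1.67 and the log2 difference 0.65 (SE 0.33), which did not pass (unadjusted p = 0.0653, adjusted p = 0.977). Without WT replicate 6 the log2 difference was 0.51. The striatal libraries, with 114 to 267 normalized counts in HT (median 173) and 97.6 to 232 in WT (median 164), overlapped throughout, and the effects in PFC and striatum differed by 0.54 (adjusted p = 0.999). Htr4 in hippocampus had 402, 312, 362, 334 and 283 in HT libraries, against 316 to 439 in WT libraries (median 395), a log2 difference of -0.21 (SE 0.10), or -0.28 without HT replicate 1.

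Htr2a in striatum was below the WT mean in 6 of 6 HT libraries and did not pass either. It had 456 to 754 normalized counts in HT (median 567), against 485 to 1033 in WT (median 775), with a log2 difference of -0.35 (SE 0.17, unadjusted p = 0.0605, adjusted p = 0.857), or -0.42 without HT replicate 1. The sum of the cortical projection neuron markers moved with it. Not all of these markers were cortical in their levels. In WT libraries 8 were higher in PFC than in striatum and 2 were lower, Foxp2 (-2.22) and Tle4 (-0.78). The 11 of 12 listed markers with a value summed to 7228 to 17989 in the HT striatal libraries and 7506 to 19012 in the WT striatal libraries, while in PFC they summed to 58946 to 63633. The highest Htr2a values in striatum, 1033, 895 and 837 in WT replicates 5, 1 and 4 and 754 in HT replicate 1, were those of the libraries with sums of 19012, 15233, 14054 and 17989. HT replicate 2, with a sum of 14044, had 586. Htr7 was lowest in HT replicate 1 (294) and WT replicate 5 (356), the libraries with the largest sums. The part of cortical RNA in the striatal values of either gene was not tested.

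The remaining receptors showed smaller or wider differences. Htr1f in striatum had 43.1 to 66.8 normalized counts in HT and 42.7 to 85.7 in WT libraries. Its log2 difference was -0.22, and -0.31 to -0.11 when any 1 library was left out. In PFC the log2 difference was -0.12 for Htr3a, 0.10 for Htr7, 0.08 for Htr1b, -0.08 for Htr2a and 0.02 for Htr1f. In striatum it was 0.11 for Htr3a, 0.11 for Htr4 and -0.10 for Htr7. Htr1d in PFC had 9.85, 5.72, 11.8, 12.2 and 3.54 normalized counts in HT libraries and 5.26 to 21.9 in WT libraries, a log2 difference of -0.48 (SE 0.41) at a level where a few reads decide the value. In striatum, where it is measured well, it was 143 to 245 in HT and 152 to 252 in WT libraries, a difference of -0.06, or -0.13 without HT replicate 1. Htr1b had 1189 to 1669 in HT striatum and 1385 to 1648 in WT striatum, with 3 of 6 HT libraries below the lowest WT library and 1 above the highest, and a log2 difference of -0.14 (SE 0.09), or -0.17 without HT replicate 1. Its antisense neighbour D430036J16Rik averaged 213 in HT striatum and 216 in WT striatum. Htr5a varied least between genotypes, with log2 differences of 0.02 in PFC, -0.01 in hippocampus and -0.01 in striatum. Htr2c differed by -0.16 (SE 0.12) in PFC, which was -0.07 without WT replicate 3, -0.10 without HT replicate 3 and -0.18 without WT replicate 6, the library of the code 31-67M. In striatum it differed by -0.13 (SE 0.09), which was -0.05 without HT replicate 1, the library of that code with a choroid plexus sum of 8514, and -0.08 without WT replicate 2, whose sum was 143213.

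Besides Htr1a and Htr4, hippocampus is described by its values. The log2 difference of HT against WT was -0.16 for Htr2a, -0.12 for Htr1b and 0.06 for Htr1f. Htr7 had 195, 196, 220, 195 and 204 normalized counts in HT libraries, against 184 to 261 in WT libraries (median 244), so that all 5 HT libraries lay below the WT mean while WT replicate 4 was the lowest of all. Htr3a had 164, 202, 186, 162 and 163 in HT libraries, against 189 to 246 in WT libraries (median 192), with 4 of 5 HT libraries below the lowest WT library. The log2 difference was -0.21 (SE 0.10) for Htr7 and -0.20 (SE 0.10) for Htr3a. Without HT replicate 1 they were -0.19 and -0.18, and within the libraries whose codes begin with 35 that of Htr3a was -0.08. Htr2c had 775, 1526, 1628, 1742 and 1783 in HT libraries, against 1182 to 1576 in WT libraries (median 1332). Its log2 difference of 0.09 (SE 0.20) became 0.31 without HT replicate 1, the library with a choroid plexus sum of 8136. In the 4 remaining HT libraries that sum was 37976 to 139184, against 7123 to 104400 in WT libraries. Of the 9 members fitted in hippocampus, 7 lay below 0, Htr1a among them by choice; 50.6% of all genes did, and nothing is read from this count. In hippocampus 0.0% of the 16820 genes passed the test.

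The other genes of the serotonin pathway were read from lists. Their counts stand against 22.9% of all genes higher and 23.9% lower for PFC against hippocampus, 27.8% higher and 29.2% lower for PFC against striatum, and 23.9% higher and 24.1% lower for hippocampus against striatum, and nothing particular to a list is read from them. Of the further receptors, Htr6 and Htr5b were measured. Htr5b was hippocampal, with means of 22.5 ± 13.2 normalized counts in WT PFC, 124 ± 18.3 in WT hippocampus and 22.8 ± 2.21 in WT striatum (SD, n = 6 each). Its log2 difference was -2.60 for PFC against hippocampus (adjusted p = 3.16e-08) and 2.39 for hippocampus against striatum (adjusted p = 8.75e-08). Htr6, which like Htr4 raises cAMP, was higher in PFC than in hippocampus by 0.43 (adjusted p = 0.00431) and than in striatum by 0.42 (adjusted p = 0.00351).

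Among 8 tested of 11 listed genes for serotonin synthesis, transport and breakdown, 1 was higher and 6 were lower in PFC than in striatum, and 1 was higher and 5 were lower in hippocampus than in striatum. Slc18a2, the vesicular monoamine transporter, differed by -4.65 (SE 0.28) between PFC and striatum, and Ddc, which makes serotonin and dopamine from their precursors, by -1.39 (SE 0.11). Between PFC and hippocampus 1 was higher and 2 were lower, with the low-affinity transporter Slc29a4 at -2.75 (SE 0.11). The serotonin transporter Slc6a4 and the raphe factor Fev were listed but had no row under these symbols in the deposited table. Of the 14 G protein and RGS genes, 6 were higher and 4 lower in PFC than in hippocampus, 9 higher and 4 lower in PFC than in striatum, and 7 higher and 4 lower in hippocampus than in striatum. Gnal, the striatal Gs-type subunit, differed by -1.42 (SE 0.05) between PFC and striatum and by -1.98 (SE 0.05) between hippocampus and striatum, and Rgs4, which shortens Gi/o and Gq signals, by 1.89 (SE 0.09) between PFC and hippocampus.

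The 14 effector genes were counted the same way. In PFC 5 were higher and 3 lower than in hippocampus, 7 were higher and 4 lower than in striatum, and in hippocampus 6 were higher and 4 lower than in striatum. Adcy5, the main striatal adenylyl cyclase, differed by -2.09 (SE 0.05) between PFC and striatum and by -2.49 (SE 0.05) between hippocampus and striatum. The phospholipase gene Plcb4 differed by 1.76 (SE 0.07) between PFC and hippocampus, and Kcnj9, a subunit of the potassium channels that Gi/o receptors open, by 1.63 (SE 0.06) between PFC and striatum. Of 16 tested of 17 listed receptor partners, 8 were higher and 6 lower in PFC than in hippocampus, 8 higher and 1 lower in PFC than in striatum, and 6 higher and 5 lower in hippocampus than in striatum. S100a10, an annexin partner that binds Htr1b and Htr4 receptors, differed by 0.90 (SE 0.10) between PFC and hippocampus. None of these lists held a gene that passed HT against WT in PFC, hippocampus or striatum, where 0.0% of all genes did. At an unadjusted p under 0.05 by limma, the G protein list had 1 of 13 genes tested in PFC (5.0% of all genes), 5 of 14 in hippocampus (6.81%) and 3 of 14 in striatum (5.89%), and each other list had 1 or 0 in each region.

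The genes whose levels most resembled each receptor were found by Pearson's r of log2 values over the 34 libraries, among 13997 genes with a mean of at least 50. The libraries share 3 regions, so r is given as a description. Htr1b was most like Drd1 (r = 0.986), the dopamine receptor of striatal direct-pathway neurons, and Htr1d most like Slc32a1 (0.949), the vesicular GABA transporter. Htr2a was most like St6gal2 (0.983) and Htr4 most like C1ql2 (0.958), a dentate granule cell gene. Htr1a was most like Ccdc71l (0.938), Htr2c most like Rsph4a (0.978), a gene of motile cilia, and Htr5a most like Clstn1 (0.980). Htr1f was most like another member, Htr2a (0.896), while Htr3a was most like Unc5a (0.961) and Htr7 most like Minar2 (0.948). After the 6 group means were subtracted, Htr2a was again most like St6gal2 (0.852), Htr2c was most like Vat1l (0.813), Htr5a most like Gal3st3 (0.801) and Htr1a most like Crim1 (0.721).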

How the data were processed

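Total RNA of 34 libraries was sequenced with a TruSeq kit, per the labels. Each deposited signal value is what the authors name a DESeq count, read as a count divided by a scaling factor. The submitters' processing notes list GRCm38, DESeq2 1.26.0, Salmon 1.1.0 and R 3.6.2, with no role or order. Of the deposited values, 98.8% were not whole to within 0.001, and raw reads could not be recovered, so no counting interval is given, depth before scaling is unknown and no count model was used. Of the 18548 identifiers, 18533 matched symbols of the GENCODE annotation.

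Genes with a mean of at least 10 were fitted on log2(value + 1) with limma 3.58.1 in R 4.3.3 (trend, robust, 2-sided, Benjamini-Hochberg at 0.05 over all genes tested), by region for genotype, over all 34 libraries for the difference of effects, and over 18 WT libraries for regions, with the column code as a random block (correlation 0.0241). Differences on this scale understate changes of low genes. Tests were tried on simulated data. The members and lists were chosen with earlier results of these data known. All 10 members are named in every region; of each pathway list, up to 3 genes with the smallest p per comparison, of which some are printed; and the genes most like a member by r. Alternatives changed the pseudocount, filter, scaling, moderation, block, cohort (first part of the code) and libraries.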

Additional observations from a re-analysis of the deposited data

Results flagged for a closer look

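In 60 groups of libraries (10 genes in 6 groups), 4 held 1 library whose gap to its neighbour took up an unusual part of the group's range by Dixon's 95% critical value. Chance flags about 1 in 20 groups. Htr2a had 2082 normalized counts in HT PFC replicate 4, above 1630 to 1751 in the other 4 HT libraries. Htr2c had 775 in HT hippocampus replicate 1, below 1526 to 1783 in the other 4. Htr3a had 246 in WT hippocampus replicate 6, above 189 to 198 in the other 5, and 28.5 in WT striatum replicate 2, below 48.2 to 50.6 in the other 5.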

How the results depend on the processing

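No member passed HT against WT in PFC or striatum, or the difference of those effects, under any alternative run. Of the 798 alternatives other than leaving out 1 library, over 76 results, 786 kept direction and side of the threshold, or stayed within the spread. The sign turned in 9. Htr1a in striatum was 0.0013 within the libraries whose codes begin with 35, 0.0056 without those beginning with 31 and 0.027 without 31-67M, an alternative added after seeing the data. Htr7 in striatum was 0.049 within the 35 libraries and 0.0029 without 31-67M. Over HT libraries, Htr7 was 0.11 for PFC against hippocampus and Htr1a was -0.019 for PFC against striatum. In hippocampus, Htr1f was -0.13 within the 35 libraries, against 0.06 in all, and Htr5a was 0.0016 with the replicate block, against -0.01. The causes were not tested.

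Leaving out 1 library turned the sign in 29 of 1011 fits, 5 of them in hippocampus, where no member was tested, and the others of differences that had not passed. In striatum the ranges were -0.11 to 0.027 for Htr1a, -0.14 to 0.018 for Htr1d, -0.017 to 0.18 for Htr3a, -0.026 to 0.22 for Htr4, -0.071 to 0.035 for Htr5a and -0.16 to 0.0029 for Htr7. In PFC they were -0.062 to 0.079 for Htr1f, -0.014 to 0.060 for Htr5a and -0.0076 to 0.18 for Htr7. In hippocampus they were -0.0057 to 0.19 for Htr1f and -0.05 to 0.03 for Htr5a. The PFC and striatal effects differed by -0.10 to 0.065 for Htr2c and -0.015 to 0.091 for Htr5a. Region calls numbered 8 to 10 for PFC against hippocampus and 9 to 10 for each other pair, and the calls these fits lost or gained stand with the results above. Scaling by TMM-like factors or median ratios was run as median ratios. Between regions it gave the same numbers of calls as the authors' scaling, 3890 higher and 4069 lower for PFC against hippocampus. It nearly repeats the main fit, so it carries little weight among the alternatives counted above.

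Whether replicate numbers pair the genotypes is unknown. Deviations in 16 same-numbered pairs of HT and WT libraries correlated at -0.10 to 0.10. In 32 pairs of libraries that share a code across regions, the correlation was -0.03 to 0.30 (median 0.056). Low values occurred even where a code was shared, so they cannot exclude pairing by number. With the replicate number as a block, 0 members passed in PFC and striatum, and Htr1a in PFC was -0.30 (adjusted p = 0.689). The unknown depth and levels near 10 normalized counts limit Htr1d outside striatum and Htr4 in PFC.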
